A study of Mus musculus with 59 samples.

Results

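A set of 12 genes, of 18194 measured on the arrays, was near background in the telencephalon of vehicle-treated mouse embryos at E14.5 and well above it in embryos of dams given valproic acid. The members were chosen by these readings. After each array was brought to a 2% trimmed mean of 500, with 1 probe set per gene, a member had a mean signal under 50 in the 3 vehicle arrays and of at least 150 in the 3 valproic acid arrays. Every valproic acid array also had to lie above every vehicle array. H2-Ab1, Hspa1a, Ell2 and Hes7 met the same limits and were set aside, so that 4 further genes belong to the pattern but are not described. In ascending order of name, the 12 members were Abhd15, Ankrd34b, Chrna5, Gch1, Gm10658, Klf9, Mak, Mitf, Plekhg4, Rhpn2, Sesn2 and Stbd1. They lie on 10 chromosomes, 11 encode proteins, and Gm10658 is a noncoding RNA.

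The study gave oral doses to pregnant C57BL/6 mice on each of E12.5, E13.5 and E14.5, then followed the brains of the offspring on Affymetrix Mouse Genome arrays. Dams received 0.5% methylcellulose, the vehicle (MC), valproic acid (VPA, an anti-epileptic drug) at 300 mg/kg, or valpromide (VPM, its amide) at 300 mg/kg. For all 3 treatments, telencephalon was collected at E14.5, 3 h past the final dose, and hippocampus and forebrain at E18.5. Adult males of 12 to 13 weeks that had taken no behavioural test gave hippocampus and cortex after prenatal MC or VPA, each with or without a running wheel (RW) in the cage from weaning, and a separate set of males gave hippocampus at P84 after MC or VPA. There were 59 arrays in 19 groups, 17 of 3 arrays and 2, both at P84, of 4. The labels call the samples biological replicates but name neither litters nor pooling, so the p-values measure the spread between these samples. The number of arrays limits the precision. In bulk tissue, fewer cells of a type and less RNA per cell cannot be told apart.

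Valproic acid inhibits class I and IIa histone deacetylases, enzymes that remove acetyl groups from histone tails and keep chromatin compact. Inhibition raises histone acetylation within hours, and many genes that are low in a cell type are transcribed more under it while others fall. Valpromide lacks the free carboxylic acid and is a weak inhibitor of these enzymes in cells, which is why it serves as a related compound with little of that activity. At E14.5 the telencephalon is made of dividing neural progenitors and young neurons. The members come from unrelated families: a stress-induced inhibitor of growth signalling (Sesn2), transcription factors (Klf9, Mitf), signalling proteins (Rhpn2, Plekhg4), a kinase (Mak), enzymes and metabolic proteins (Gch1, Abhd15, Stbd1), a receptor subunit (Chrna5), an ankyrin repeat protein (Ankrd34b) and the noncoding RNA.

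Whole-array facts that touch these values were few. Arrays of a group correlated at 0.972 to 0.994, and no pair of arrays was identical. All 6 telencephalon markers measured were above the floor at E14.5 in every treatment. At E18.5 the summed hippocampal markers ran from 5598 to 7278 in MC hippocampus and from 2624 to 3123 in MC forebrain, with C1ql2 under the floor in both. One E14.5 VPM array (replicate 3) stood apart, with a signal of 19330 for the choroid plexus gene Ttr, against at most 105 in any E14.5 MC or VPA array and a summed choroid plexus signal of 21570 against 1294 to 1345 in the other VPM arrays.

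Sesn2, which encodes sestrin 2, a leucine-binding inhibitor of mTORC1 induced by cell stress, had a ratio of means above that of any other member whose MC mean was over the floor. Its signal was 40.1, 42.9 and 37.4 in the 3 MC arrays and 617, 559 and 535 in the 3 VPA arrays, a ratio of means of 14.2. The VPM arrays read 36.8, 56.4 and 45.0, within reach of the MC arrays. A second Sesn2 probe set gave 82.3 ± 22.5 (SD, n = 3) in MC, 448 ± 22.8 in VPA and 81.6 ± 17.0 in VPM. The pattern across treatments was shared by both probe sets, but the second did not meet the limit of 50 in MC.

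Rhpn2 encodes a signalling scaffold protein. It read 25.9, 22.6 and 14 in MC, 340, 247 and 328 in VPA, and 28.3, 23.9 and 11.8 in VPM. All MC and VPM arrays lay under 32, the floor below which signals are treated as having no order, so the VPA arrays were at least 9.53-fold higher than MC. A second probe set showed the same order, with 24.5 ± 4.32 in MC, 352 ± 50.8 in VPA and 21.2 ± 7.60 in VPM. Plekhg4, a guanine nucleotide exchange factor, had the smallest ratio of the 12, at 3.33. Its arrays read 57.9, 43.4 and 37.3 in MC, 154, 168 and 139 in VPA, and 65.1, 60.5 and 73.2 in VPM. The 3 VPM arrays lay above all MC arrays and far below all VPA arrays.

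Klf9 encodes a zinc finger transcription factor that responds to thyroid hormone and glucocorticoids and acts in the late maturation of hippocampal neurons. It read 23.7, 54.8 and 52.2 in MC, 306, 337 and 384 in VPA (7.85-fold by means), and 71.1, 82.0 and 120 in VPM. VPM lay above MC without overlap, at a level well short of VPA. Of its 6 other probe sets, 4 had every VPA array above every MC array with a VPA mean over the floor, and the other two had group means under the floor. Among the 4, one went from 131 ± 24.6 in MC to 571 ± 12.7 in VPA and another from 57.8 ± 41.5 to 258 ± 2.01, so for Klf9 the MC level was low rather than absent.

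The promoters of Sesn2, Rhpn2 and Klf9 are shown because these genes were high together in VPA from a low level, with the largest ratios under this scaling when MC means under 32 are set to 32. Ratios bounded by the floor have no firm rank, and under quantile normalization those of Ankrd34b (7.42), Gm10658 (6.04) and Mak (5.49) exceeded that of Klf9 (4.62). Each line gives the 250 bases before the annotated transcription start from RefSeq, build GRCm38.p6, read 5′ to 3′ on the gene's strand. Capitals mark matches to GGGCGG (the GC box, bound by Sp and Klf factors) and CCAAT (bound by NF-Y), on either strand. Sesn2 is chr4:132510457-132510706 on the minus strand, Rhpn2 chr7:35333987-35334236 on the plus strand and Klf9 chr19:23140976-23141225 on the plus strand.
Sesn2: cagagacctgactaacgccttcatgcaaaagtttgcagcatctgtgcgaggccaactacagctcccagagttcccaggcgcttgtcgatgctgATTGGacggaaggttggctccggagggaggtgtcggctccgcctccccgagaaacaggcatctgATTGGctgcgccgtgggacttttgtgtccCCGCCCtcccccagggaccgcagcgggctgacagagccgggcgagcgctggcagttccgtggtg
Rhpn2: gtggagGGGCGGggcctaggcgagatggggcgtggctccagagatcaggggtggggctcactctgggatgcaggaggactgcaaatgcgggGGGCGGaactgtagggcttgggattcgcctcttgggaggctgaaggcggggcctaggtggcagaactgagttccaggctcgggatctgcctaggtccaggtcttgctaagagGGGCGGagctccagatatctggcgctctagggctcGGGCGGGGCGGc
Klf9: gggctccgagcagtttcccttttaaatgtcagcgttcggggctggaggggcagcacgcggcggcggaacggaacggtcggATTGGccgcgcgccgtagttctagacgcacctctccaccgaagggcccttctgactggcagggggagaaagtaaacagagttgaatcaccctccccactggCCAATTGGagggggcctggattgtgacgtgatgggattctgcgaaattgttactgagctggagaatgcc
Sesn2 has 1 GC box and 2 CCAAT matches, Rhpn2 has 5 GC boxes and no CCAAT match, and Klf9 has 3 CCAAT matches and no GC box. A pair of the matches overlaps in both Rhpn2 and Klf9.

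All 12 members had a RefSeq entry, 3 of them (Mitf, Chrna5 and Mak) more than 1, which gave 16 windows of that length. GGGCGG was found on either strand in at least 1 window of 9 members (9 of 16 windows), against 32.7% of all 32851 windows of the same length. CCAAT was found in 6 members (6 of 16 windows; 33.8% of all windows). TATAAA was found in Gch1, Mak and Mitf (12.4% of all windows), the cAMP response element TGACGTCA in Mitf (1.55%) and the AP-1 motif TGANTCA in Klf9 (6.75%). No member window held CACGTG (6.02% of all windows), TGATGNAA, the ATF4 composite motif (3.45%), TGTTCT, which the glucocorticoid receptor binds (16.1%), or the heat shock element, alternating GAA and TTC units with 2-base gaps (0.466%). The median GC content of the member windows was 59.6% (range 36.0% to 71.2%), against 52.4% over all windows. Their median ratio of observed to expected CpG was 0.68, against 0.37 over all windows, and 71.8% of all windows lay below the members' median. These matches describe the letters in the windows and are no evidence of binding.

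Mitf encodes a basic helix-loop-helix factor known for melanocytes and the retinal pigment epithelium. Its signal was 31.8, 52.7 and 25.9 in MC, 182, 264 and 184 in VPA (5.70-fold by means), and 67.9, 54.4 and 75.8 in VPM. As 2 of the 3 MC arrays were under the floor, the ratio is approximate. The VPM arrays lay just above the MC arrays, and under quantile normalization the groups overlapped. A second, dimmer Mitf probe set did not separate VPA from MC (17.8 ± 11.7 in MC, 36.2 ± 16.7 in VPA). Tyr, Tyrp1 and Mlana, the pigment enzymes and a melanosome protein, had means under the floor in all 3 E14.5 groups. Another pigment cell gene, Pmel, had means over the floor, at 44.7 in MC, 51.6 in VPA and 32.6 in VPM, and its groups overlapped. Dct, which forebrain progenitors also express, read 705 ± 183 in MC, 408 ± 72.6 in VPA and 370 ± 101 in VPM. Sox10 read 25.9 ± 4.74 in MC, 34.7 ± 26.2 in VPA and 67.0 ± 18.7 in VPM, and its VPM arrays lay above all MC arrays, as did those of Mitf. Ednrb, a receptor of neural crest cells that progenitors also express, had lower signals than MC both in VPA (-0.71, limma adjusted p = 9.85e-05) and in VPM (-0.34, adjusted p = 0.0499). Their part in the Mitf values was not tested.

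Mak encodes a serine/threonine kinase known from male germ cells and photoreceptor cilia. Its arrays read 29.9, 21.3 and 11.2 in MC, 192, 162 and 180 in VPA, and 32.5, 7.26 and 47.0 in VPM. With all MC arrays under the floor, VPA was at least 5.56-fold higher. Of the 12 germ line markers, all had a mean under the floor in MC, and 11 did in VPA and in VPM. Stag3 was the exception in both.

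The 3 enzymes and metabolic proteins had ratios between 3.61 and 4.76. Gch1 encodes GTP cyclohydrolase 1, the rate-limiting enzyme in the synthesis of tetrahydrobiopterin, a cofactor for making dopamine and serotonin. It read 50.9, 34.9 and 48.5 in MC, 161, 166 and 158 in VPA (3.61-fold), and 50.5, 56.1 and 47.9 in VPM. Stbd1, a glycogen-binding membrane protein, read 37.0, 47.3 and 39.6 in MC, 174, 204 and 156 in VPA (4.31-fold), and 38.0, 36.0 and 24.6 in VPM. Abhd15, a hydrolase-fold protein studied in fat cells, read 50.9, 16.9 and 33.8 in MC, 184, 151 and 148 in VPA (4.76-fold), and 39.3, 40.2 and 17.3 in VPM. In each of these genes the VPM arrays overlapped the MC arrays. The second probe set of Gch1 was also higher in VPA (80.6 ± 19.0) than in MC (19.5 ± 1.89), and that of Abhd15 was not (42.0 ± 17.2 in MC, 46.0 ± 7.56 in VPA).

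Chrna5 encodes the alpha5 subunit of nicotinic acetylcholine receptors, an accessory subunit that joins others to form a channel. It read 55.1, 38.8 and 21.0 in MC, 152, 156 and 161 in VPA (4.09-fold), and 53.4, 39.9 and 28.3 in VPM. The VPA arrays were close to each other, with an SD of 4.48. Ankrd34b, an ankyrin repeat protein of the nervous system, read 23.6, 4.18 and 17.4 in MC, 190, 163 and 205 in VPA, and 38.8, 46.4 and 23.0 in VPM. The VPA arrays of Ankrd34b were at least 5.81-fold above MC. Gm10658 read 23.2, 17.8 and 9.27 in MC, 152, 122 and 196 in VPA, and 32.7, 14.1 and 16.7 in VPM, at least 4.90-fold higher in VPA. Both other probe sets of Gm10658 also had every VPA array above every MC array, at 111 ± 26.0 and 53.4 ± 17.0 in VPA.

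**Figure D1:**
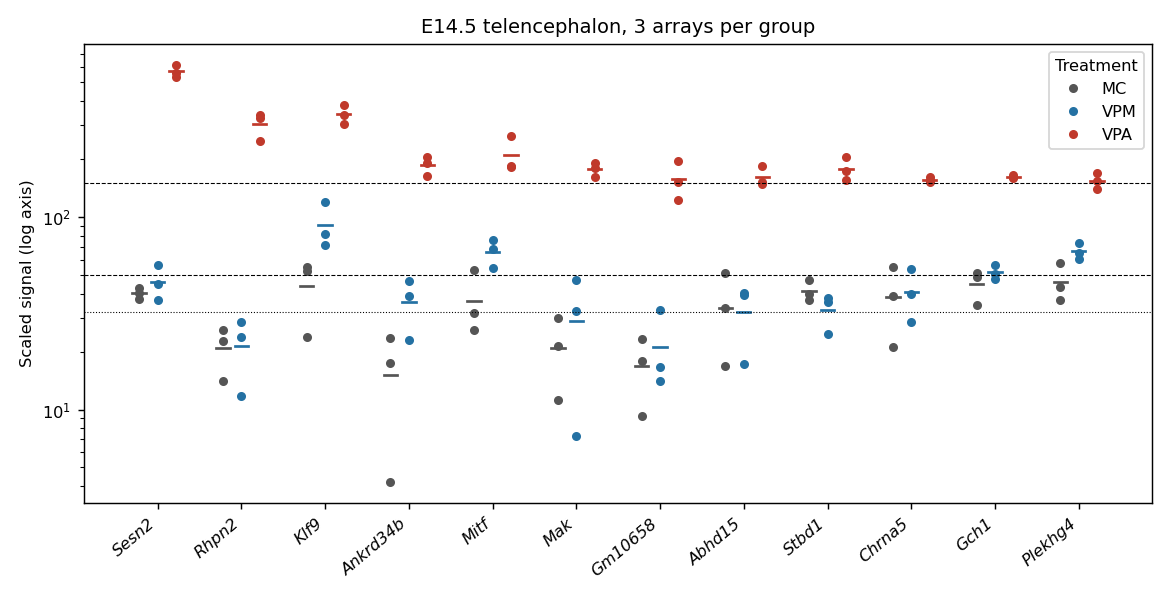
Scaled signal (log axis) of the 12 members in each E14.5 telencephalon array, with 3 arrays per treatment as points and the group mean as a short line; dashed lines mark the limits of 50 and 150 and the dotted line the floor of 32. All VPA points of a gene lie above its MC and VPM points, and VPM stays clear of MC only in Klf9, Mitf and Plekhg4.

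The difference between VPA and MC chose the members and is given here without a test. Among the 11068 genes with a signal of at least 100 in 3 or more of the 9 E14.5 arrays, 53.8% passed a limma adjusted p of 0.05 between VPA and MC, and 30.3% had every VPA array above every MC array. For VPA over VPM the members' direction was just as complete, with no overlap in 12 of 12. That comparison uses the arrays that chose them, and 30.7% of all genes tested had no overlap in that direction. At the same dose and time no member reached a mean of 150 in VPM, the amide. VPM lay above MC without overlap in 3 members, Klf9, Mitf and Plekhg4, against 15.2% of genes tested. The MC arrays here are those that chose the members for a low signal, so the count and that share are not directly comparable. In these 3 genes the highest VPM array was replicate 3, the array with high Ttr, and the remaining VPM arrays were also above every MC array. Its part in the result was not tested.

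Other measures moved with treatment beside these values. The summed signal of 6 cortical neuron markers ran from 20700 to 22010 in MC and from 13180 to 14270 in VPA, with 5 members lower and 1 higher in VPA (limma adjusted p under 0.05) and none under the floor. The summed red cell signal ran from 11100 to 13090 in MC, from 6659 to 10150 in VPA and from 2653 to 3316 in VPM. Summed signals were also lower in VPA than in MC for endothelium and pericytes (3565 to 3868 against 4191 to 4660, 4 of 10 markers lower) and astrocytes (6206 to 7045 against 7758 to 8488, 1 of 4 tested lower). The same held for telencephalon (12590 to 13370 against 14080 to 16190, 4 of 6 lower) and meninges (605.8 to 630 against 672.1 to 784.4, 2 of 5 tested lower). It also held for melanocyte and neural crest markers (1452 to 1757 against 2155 to 2349). Of the 3 of these tested, 2 were lower, and the other was the member Mitf. Over all genes tested between VPA and MC, 53.8% passed in either direction, and no share for lower genes alone is given here. No marker of endothelium and pericytes, astrocytes or meninges passed as higher. Their counts in either direction were therefore 4 of 10, 1 of 4 and 2 of 5, not above that share. An Xist signal typical of females was seen in 1 of 3 MC arrays, 2 of 3 VPA arrays and 2 of 3 VPM arrays. Their part in the members' levels was not tested.

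A list of 19 genes known to respond to deacetylase inhibitors gives the surrounding response. Of 18 tested, 9 rose, 3 fell and 6 did not pass between VPA and MC in limma, with a median log2 difference of 0.47 against -0.003 over all genes tested. In this comparison 53.8% of all genes tested passed in either direction. H1f2, a linker histone, rose by 2.15 on the log2 scale (adjusted p = 6.53e-08), and Hdac1, itself a deacetylase, rose by 0.60 (adjusted p = 4.15e-06). Hspa1b, a heat shock protein whose probe may also read its near-identical neighbour, rose by 2.59 (adjusted p = 3.79e-06). Txnip, an inhibitor of thioredoxin, fell by 0.91 on the log2 scale (adjusted p = 5.31e-06). Between VPM and MC, the same list had 2 higher, 5 lower and 11 that did not pass, with a median of 0.00 against -0.006, where 11.6% of all genes tested passed in either direction. H1f2 fell by 0.79 in VPM (adjusted p = 0.00123) and Hdac1 fell by 0.47 (adjusted p = 0.00109), both opposite in sign to VPA.

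The limits of the rule cut through a continuous range. Just inside the MC limit were Plekhg4 (46.2), Gch1 (44.8) and Klf9 (43.6). Just outside it, with VPA means that met the other limit, were Cited1 (51.2 in MC, 272 in VPA), Rasd2 (51.7 and 302) and a gene known only by a clone name (54.7 and 160). At the VPA limit, Plekhg4 (154), Chrna5 (156) and Gm10658 (157) were inside, while Tex15 (149.7), Tcfl5 (147) and Rhpn1 (147) were outside. Rhpn1 is the paralog of the member Rhpn2 and so missed the set by its VPA signal, with an MC mean of 38.9. In all, 6121 genes had an MC mean under 50.

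The word silent held only in part. In 4 members (Ankrd34b, Gm10658, Mak and Rhpn2) all MC arrays were under the floor, in 4 some were, and in 4 (Gch1, Plekhg4, Sesn2 and Stbd1) none was. Of the 15 other probe sets of the members, 11 had every VPA array above every MC array with a VPA mean over the floor, and 3, for Klf9 and Sesn2, had an MC mean of 50 or more. Scaling moved the absolute level as well. Under quantile normalization VPA lay above MC without overlap in 12 of 12, but only 4 members kept an MC mean under 50, and with the values as deposited only 2 reached 150 in VPA.

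Later vehicle brains divided the members into genes with higher signals at later ages and genes that stayed low. Of the 12, 6 had a mean of at least 150 in some later MC group, namely Klf9, Ankrd34b, Sesn2, Mitf, Rhpn2 and Plekhg4. The other 6, Abhd15, Chrna5, Gch1, Mak, Stbd1 and Gm10658, stayed under 150 in all later MC groups, and Gm10658 was under 50 in every one. These levels are described without a test, since age and tissue differ together in part and the E14.5 MC arrays chose the members.

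Klf9 had the widest range. Its MC mean was 43.6 at E14.5, 449 ± 37.0 in E18.5 forebrain and 496 ± 87.4 in E18.5 hippocampus, where the tissues overlapped. It was 7498 ± 366 in adult hippocampus, 8080 ± 556 in adult cortex and 8794 ± 366 (SD, n = 4) in P84 hippocampus, and these neighbours also overlapped. Adult cortex was 17.98-fold above E18.5 forebrain, and P84 hippocampus 17.7-fold above E18.5 hippocampus. In the probe set that stood for Klf9, the E14.5 VPA signal therefore stayed below that of any later vehicle array, the lowest of which read 424. Its other probe sets did not all keep this order by group means. One read 258 ± 2.01 in E14.5 VPA, 242 ± 37.2 in E18.5 MC forebrain and 295 ± 28.9 in E18.5 MC hippocampus. Another read 130 ± 43.8, 126 ± 4.76 and 107 ± 24.7 in the same groups. The brightest of them did keep it, at 571 ± 12.7, 650 ± 28.6 and 632 ± 144.

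Ankrd34b was higher at each step without overlap, from 15.1 at E14.5 to 45.9 in E18.5 hippocampus, 102 in E18.5 forebrain and 727 at P84. The P84 arrays overlapped those of adult hippocampus (785), and adult cortex (908 ± 69.2) lay above both. Sesn2 stayed at 47.9 in E18.5 forebrain and 61.4 in E18.5 hippocampus, which overlapped, and reached 226 in adult cortex, 291 at P84 and 292 in adult hippocampus. Its 3 E14.5 VPA arrays, at 535 and more, were above every one of the 56 other arrays. Rhpn2 went from 48.8 in E18.5 forebrain and 78.3 in E18.5 hippocampus to 148 at P84, 164 in adult hippocampus and 164 in adult cortex, and these last 3 overlapped. Mitf went from 99.9 and 119 at E18.5 to between 246 and 276 in the 3 older groups, which overlapped each other. Of these, adult hippocampus also overlapped E18.5 hippocampus. Plekhg4 went from 43.2 and 72.8 at E18.5 to between 132 and 151 in the older groups, which overlapped too.

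Among the genes that stayed low, groups next to each other in the order of MC means overlapped throughout for Abhd15, Chrna5, Gch1 and Mak, and for Stbd1 only E14.5 lay apart from the next group. Groups farther apart in that order could separate. Chrna5 and Stbd1 in both E18.5 tissues, Mak in E18.5 forebrain and Gch1 in E18.5 hippocampus lay above E14.5 MC without overlap. Abhd15 at P84 was 2.58-fold above E18.5 hippocampus and Mak in adult hippocampus 2.84-fold, both without overlap. Chrna5 was highest in E18.5 hippocampus (117 ± 31.8) and lower in adult cortex (59.98). Stbd1 ran from 70.1 in adult cortex to 90.6 in E18.5 hippocampus. Mak reached 125 in adult hippocampus and 116 ± 79.5 in adult cortex, the latter with arrays at 30.1, 132 and 187.

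In 6 members (Abhd15, Gch1, Gm10658, Rhpn2, Sesn2 and Stbd1), the E14.5 VPA arrays lay above all 56 other arrays of the series, adult arrays included. For Abhd15 the highest of those others was 106, a P84 VPA array. This count used 1 probe set per gene. The second probe set of Abhd15 went the other way, at 46.0 ± 7.56 in E14.5 VPA and 84.4 ± 15.4 in E18.5 MC hippocampus. That of Gch1, at 80.6 ± 19.0 in E14.5 VPA and 59.2 on average over all 59 arrays, also had later arrays above its lowest VPA array. In the other 6, some later array was higher, and for Ankrd34b 32 of 56 arrays exceeded the lowest VPA array. The rule fixed the contrast with E14.5 MC but not with the later ages.

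**Figure D2:**
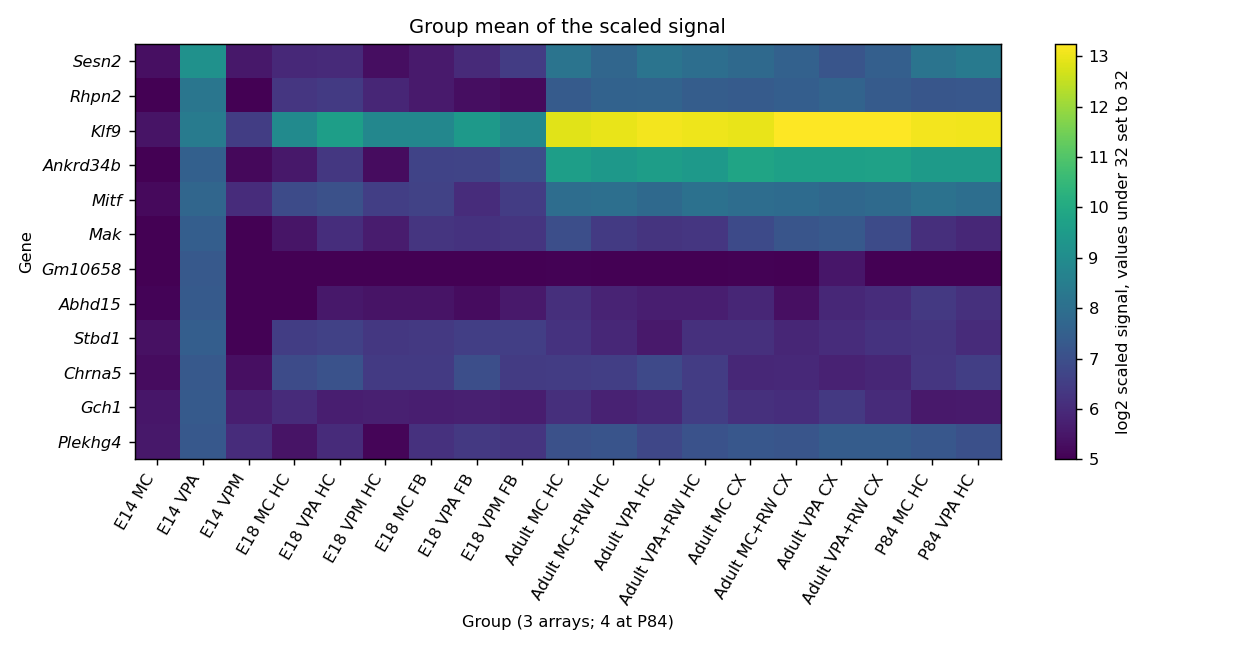
Group means of the scaled signal (log2, values under 32 set to 32) for the 12 members in all 19 groups, from E14.5 to P84; each cell is the mean of 3 arrays, or 4 at P84. The E14 VPA cell is above the E14 MC and E14 VPM cells in every row. Klf9 has the highest cells, in the adult and P84 groups, and these set the top of the colour scale. Ankrd34b is also highest in those groups. Gm10658 is at or near the floor in all columns but E14 VPA and adult VPA cortex (45.0).

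At E18.5, days after the last dose, few members were bright enough to test, and 1 of them differed in 1 tissue. The question here is whether the members still differed in arrays that the rule had not used. Of the 12, 4 passed the signal filter in the forebrain (Ankrd34b, Chrna5, Klf9 and Mitf) and 4 in the hippocampus (Chrna5, Klf9, Mitf and Stbd1), and the other members were too dim to test in each tissue. Klf9 was the single member that passed between VPA and MC in the forebrain, where 2.16% of 11507 genes passed, 1.09% in the direction of VPA over MC.

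Klf9 in the E18.5 forebrain read 424, 492 and 432 in MC, 676, 766 and 686 in VPA, and 456, 460 and 457 in VPM. All VPA arrays were above all MC and VPM arrays. The log2 difference of VPA from MC was 0.66 ± 0.079 (SE; limma adjusted p = 0.00497), and leaving out any 1 of the 6 arrays kept the adjusted p between 0.0093 and 0.0327. With the values as deposited, without scaling, the difference was 0.67 and the call was lost (adjusted p = 1). VPM did not pass against MC (0.03, interval -0.14 to 0.20). The difference between the compounds at the same dose and time was 0.63 (limma adjusted p = 0.0126), where 0.53% of genes passed. This second call was lost when VPA replicate 1 (adjusted p = 0.0701), VPA replicate 2 (0.0527), VPM replicate 1 (0.0599) or VPM replicate 2 (0.056) was left out of the limma fit.

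In the E18.5 hippocampus Klf9 read 441, 449 and 596 in MC, 600, 921 and 863 in VPA, and 524, 426 and 409 in VPM. The VPA arrays again lay above all others, the lowest only just. The difference from MC was 0.67 (interval 0.30 to 1.05) and that from VPM 0.79 (0.42 to 1.17), neither past the threshold (limma adjusted p = 0.199 and 0.0998). In that tissue limma called 0 of 11540 genes in either comparison, with 13.1% and 14.9% at an unadjusted p under 0.05. An Xist signal typical of females was seen in 0 of 3 MC and 2 of 3 VPA hippocampus arrays. With inferred sex as a covariate, chosen after seeing the data, the difference from MC was 0.37 (limma adjusted p = 0.714).

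Of the 6 other Klf9 probe sets, 3 had every VPA array above every MC and VPM array in both E18.5 tissues. One more did so in hippocampus and overlapped in forebrain, and the other two, dim in both tissues, did not follow that order. For the first of the pair described above the signal was 650 ± 28.6 in MC, 1119 ± 120 in VPA and 700 ± 12.6 in VPM forebrain, and 632 ± 144, 993 ± 130 and 626 ± 11.9 in hippocampus. For the second it was 242 ± 37.2, 440 ± 41.3 and 275 ± 26.6 in forebrain and 295 ± 28.9, 448 ± 54.0 and 220 ± 34.5 in hippocampus.

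Marker genes also differed between the E18.5 forebrain groups. The summed choroid plexus signal ran from 19250 to 27600 in MC and from 2225 to 7879 in VPA, with 6 of 8 tested markers lower in VPA and Kl and Otx2 under the floor there. In the hippocampus that sum ran from 4612 to 33110 in MC and from 25250 to 30910 in VPA, and 0 of 8 markers passed in limma. The summed oligodendrocyte lineage signal in the forebrain was 4630 to 5241 in MC and 6147 to 6577 in VPA, with 1 of 5 tested markers higher (Olig1, 0.45 on the log2 scale, limma adjusted p = 0.00497) and Mog under the floor, and in hippocampus 3599 to 5051 in MC and 5616 to 6410 in VPA. The summed astrocyte signal was 8797 to 9352 in MC and 9921 to 10550 in VPA, with 1 of 7 tested higher (Aqp4, 0.73, limma adjusted p = 0.0176). Over all genes tested in the forebrain, 2.16% passed between VPA and MC. The part of these markers in the Klf9 difference was not tested. Of 16 tested genes on the list of deacetylase inhibitor responders, 0 rose and 1, Gadd45g, fell (by 0.56 on the log2 scale, limma adjusted p = 0.0134), with a median of -0.07 against -0.001 over all genes tested.

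Chrna5 also had every E18.5 forebrain VPA array above every MC array, at 137, 121 and 120 against 90.5, 66.9 and 94.5. VPM read 85.5, 82.9 and 89.1, below all VPA arrays. Chrna5 reached a signal of 100 in this tissue in the VPA arrays alone and so passed the filter through the group where it was high, and no test is drawn from it. No overlap in that direction was found for 2 of the 12 members from MC and 2 from VPM, against 11.1% and 8.73% of genes tested. In hippocampus Chrna5 read 106, 173 and 127 in VPA and 114, 151 and 87.5 in MC, which overlapped, and 76.6, 84 and 92.2 in VPM (VPA over VPM 0.66, limma adjusted p = 0.239). No VPM array reached 100 there, and Chrna5 would not have passed the filter without the VPA arrays, so this p is not used as a result. A second Chrna5 probe set had VPA and MC overlapping in the forebrain (79.0 ± 6.27 and 81.0 ± 9.78).

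The remaining E18.5 values were small or dim. Mitf overlapped between VPA and MC in both tissues, at -0.55 (interval -1.20 to 0.10) in forebrain, where no VPA array reached 100, and 0.29 (-0.79 to 1.36) in hippocampus. Ankrd34b differed by 0.01 between VPA and MC forebrain (-0.49 to 0.51) and Stbd1 by 0.11 in hippocampus (-0.31 to 0.52). Plekhg4, under the filter in hippocampus, read 67.1, 59.3 and 69.0 in VPA, 41.3, 43.0 and 45.4 in MC and 30.2, 38.6 and 34.4 in VPM, so that the 3 groups did not overlap. Lack of overlap with MC was seen for 7.49% of genes with VPA higher, 10.3% with VPA lower and 8.99% with VPM lower in that tissue, and for 11.6% with VPA above VPM, where 4 of the 12 members (Ankrd34b, Chrna5, Klf9 and Plekhg4) had it. Gch1, also under the filter, read 54.0, 47.4 and 53.5 in VPA against 67.1, 59.2 and 66.5 in MC hippocampus, while its second probe set was higher in VPA (46.3 ± 4.81) than in MC (36.0 ± 3.09) without overlap. In the forebrain Sesn2, under the filter too, read 75.1, 81.2 and 110 in VPM and 46.2, 44.5 and 53.0 in MC, with VPA at 41.0, 111 and 36.4 (5.75% of genes had VPM above MC without overlap). VPM and MC forebrain gave 0 calls in limma over all genes, 5.44% at an unadjusted p under 0.05, and among the 4 members tested the smallest p was that of Ankrd34b (0.31, adjusted p = 0.915). In hippocampus, where 0.00867% of genes passed between VPM and MC, Chrna5 had the smallest p of the members (-0.44, limma adjusted p = 0.554). As no VPM array of Chrna5 reached 100 there, this p is not used as a result either.

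**Figure D3:**
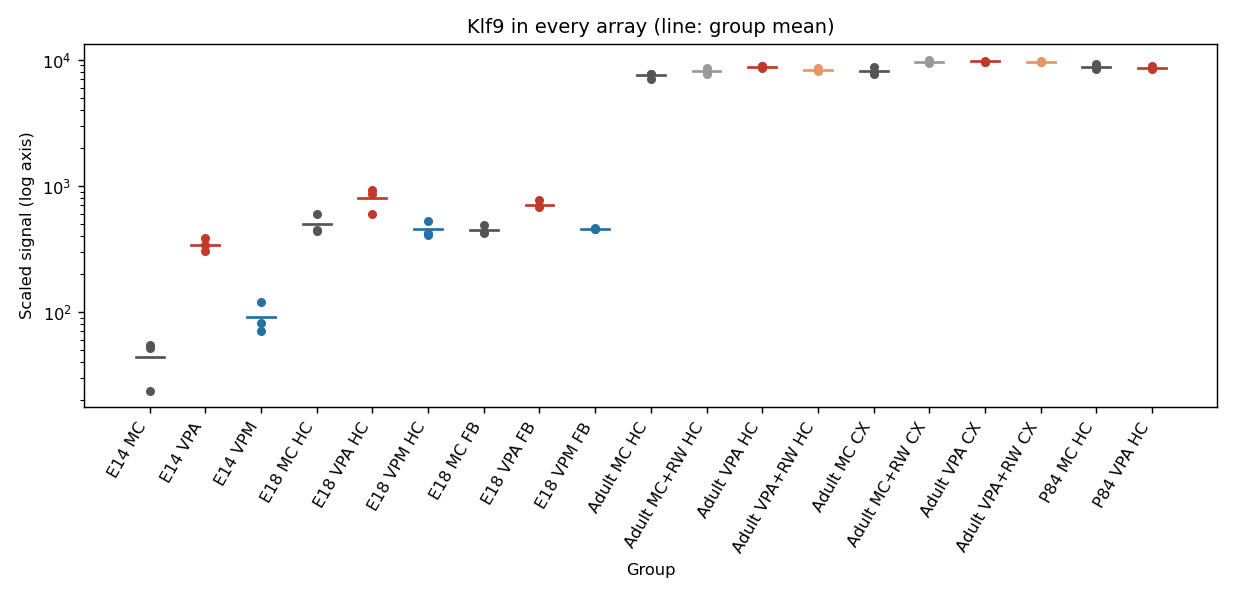
Scaled signal of Klf9 (log axis) in every array of the 19 groups, with the group mean as a line; dark grey is MC, blue VPM, red VPA, and the lighter grey and orange are the MC and VPA groups with a running wheel. VPA lies above MC and VPM at E14.5 and in both E18.5 tissues, and all adult arrays lie between 7076 and 9858.

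In adult offspring no member passed. Between VPA and MC hippocampus 8 members were tested, with 0 called in limma and 2, Klf9 and Mak, at an unadjusted p under 0.05 (0% and 11% of 13466 genes). Mak passed the filter through its MC arrays alone, so its p is not used as a result. Between VPA and MC cortex 7 were tested, with 0 called and 2 at an unadjusted p under 0.05 (0.00735% and 10.5% of 13606 genes). At P84 6 were tested, with 0 called and 0 at an unadjusted p under 0.05 (0% and 4.95% of 13036 genes).

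Klf9 again had the smallest p in both adult tissues. In hippocampus it read 8980, 8838 and 8556 in VPA and 7076, 7722 and 7696 in MC, so VPA was 0.23 higher on the log2 scale (0.13 to 0.33), with a limma adjusted p of 0.227. In cortex it read 9635, 9655 and 9837 in VPA and 7863, 7666 and 8711 in MC, or 0.27 higher (0.16 to 0.38; limma adjusted p = 0.12). The groups did not overlap in either tissue, as was so for 8.23% and 8.33% of genes tested in that direction. At P84, in the larger set of hippocampus arrays, Klf9 read 8854, 8833, 8564 and 8399 in VPA and 8508, 8607, 9326 and 8736 in MC, and these overlapped (-0.02, interval -0.12 to 0.08). The difference between the adult and P84 hippocampus results was not tested.

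Sesn2 read 187, 156 and 90.2 in adult VPA cortex and 176, 220 and 284 in MC cortex (-0.68, interval -1.27 to -0.10, limma adjusted p = 0.414), and the difference was -0.38 without VPA replicate 3. In hippocampus its difference was 0.03 (-0.69 to 0.74), and at P84, where it had the smallest p of the members, 0.21 (-0.07 to 0.49, limma adjusted p = 0.902). Mak read 96.3, 80.9 and 51.9 in adult VPA hippocampus and 101, 171 and 104 in MC, without overlap, as in 8.68% of genes. It passed the filter there through the MC arrays alone, the group where it was high, and no test is drawn from it. In cortex Mak differed by 0.75, with a wide interval of -0.27 to 1.76. Rhpn2 was 0.28 higher in VPA in hippocampus (-0.06 to 0.62) and 0.27 in cortex (-0.11 to 0.65), neither past the threshold. The differences of Ankrd34b, Mitf and Plekhg4 in the 3 older sets lay between -0.29 (Plekhg4 in adult hippocampus) and 0.15 (Plekhg4 in adult cortex).

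**Figure D4:**
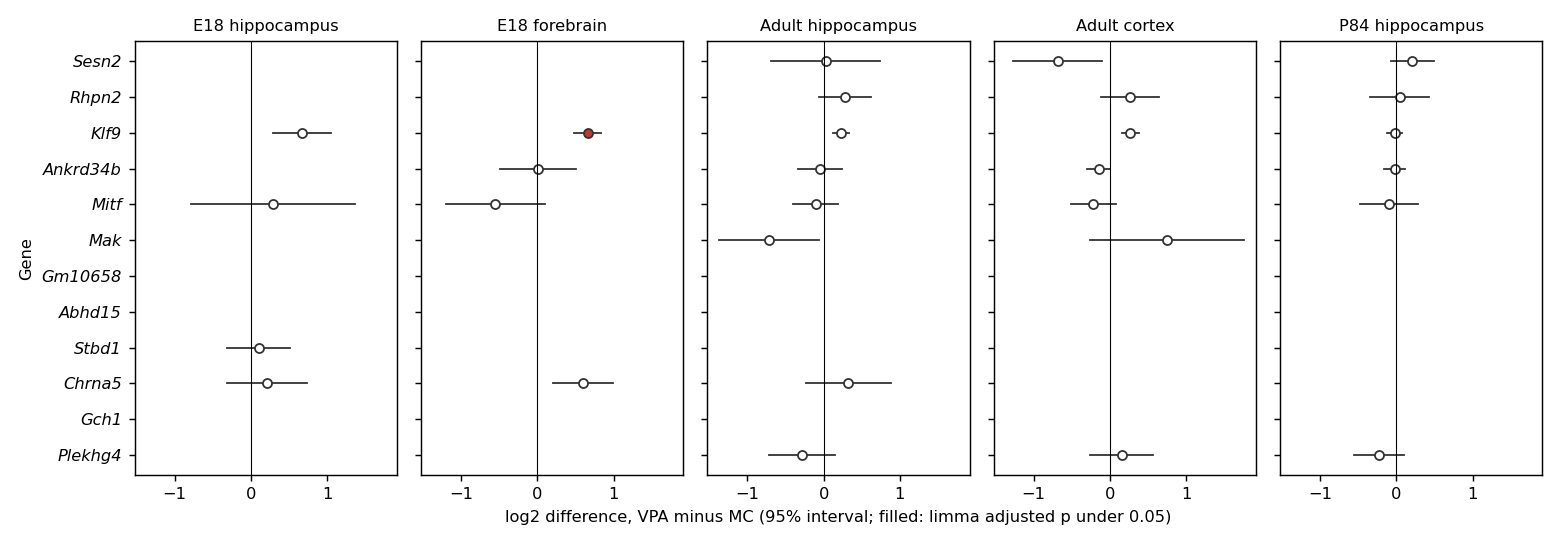
Log2 difference between VPA and MC (points) with its 95% interval (lines) for each member in the 5 later sets of arrays; members under the signal filter have no point, and a filled point marks a limma adjusted p under 0.05. The one filled point is Klf9 in E18.5 forebrain, at 0.66. Chrna5 in E18.5 forebrain and Mak in adult hippocampus passed the filter only through the group where they were high. No test is drawn from their intervals.

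The running wheel comparisons ask whether exercise moved the same genes. Between MC mice with and without a wheel, 0 of 8 members passed in hippocampus and 0 of 7 in cortex in limma, with 1 at an unadjusted p under 0.05 in each (8.72% of 13466 genes and 1835 of 13606 genes did; 0% and 0.0147% were called). That member was Klf9, whose arrays also did not overlap (6.48% of genes in hippocampus and 7.8% in cortex, in that direction). In cortex it read 9858, 9521 and 9492 with the wheel and 7863, 7666 and 8711 without (0.25, limma adjusted p = 0.107), and the call was gained when replicate 3 of the wheel group was left out (adjusted p = 0.0461). In hippocampus it read 8595, 7949 and 7762 with the wheel and 7076, 7722 and 7696 without (0.11, limma adjusted p = 0.548). Mak in hippocampus was lower with the wheel, at 96.0, 90.8 and 67.3, without overlap, as in 6.33% of genes, again against the arrays that carried it through the filter. The MC arrays without a wheel are the same as those set against VPA above.

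Among mice with a wheel, VPA and MC differed in 0 of 8 members in hippocampus and 0 of 7 in cortex in limma, with 0 at an unadjusted p under 0.05 in both (4.22% and 9.6% of all genes; 0% and 0.022% called). Klf9 in these cortex arrays read 9553, 9653 and 9771 after VPA, in the range of the MC mice with a wheel (0.01, interval -0.10 to 0.12). The member with the smallest p in cortex was Plekhg4 (0.23, limma adjusted p = 0.757), at 212, 147 and 153 after VPA and 168, 127 and 140 after MC. It was 0.059 without VPA replicate 1 and 0.13 without MC replicate 2. In hippocampus it was Sesn2 (0.40, limma adjusted p = 1), at 254, 255 and 246 after VPA and 255, 95.4 and 286 after MC. Gch1, under the filter, read 74.9, 120 and 74.6 after VPA and 44.3, 55.4 and 67.7 after MC, without overlap, as in 4.81% of genes. The Sesn2 difference rested on the MC array at 95.4, replicate 2, and was -0.10 without it.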

How the data were processed

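Messenger RNA was measured on 59 Affymetrix Mouse 430 2.0 arrays, and the authors deposited a linear signal intensity per probe set. The submitters' processing notes name GCOS, with neither a signal algorithm nor a target value in the sources used. The deposited intensities had 2% trimmed means of 197.6 to 419.4 (197.6 to 251.4 at E14.5), and each array was scaled to 500. Of 45101 probe sets, 34958 carried 1 gene symbol, 932 several and 9211 none, and 34754 matched the mouse gene table (GRCm38.p6, used for names). The probe set of highest mean over all arrays stood for a gene. For tests, signals under 32 were set to 32, log2 was taken, and genes with a signal of at least 100 in 3 arrays (4 at P84) of an age and tissue were kept. The limma package (version 3.58.1; R 4.3.3) fitted 1 term per group with an intensity trend, and p-values were adjusted by Benjamini-Hochberg over all genes tested in each of 13 comparisons that the rule did not use. Intervals are 95%. A fold against an MC mean under 32 is a bound set at 32.

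The members and gene lists (14 lists, 131 genes, 125 matched) were chosen with earlier results of these data known. All members are named. The genes named otherwise are the 3 nearest each limit and up to 4 of each list by adjusted p, and some others were chosen after their values were seen. On simulated data with the spread of the E18.5 forebrain arrays (11471 genes, VPA versus MC), 86% of genes changed by 0.5 and 100% of those changed by 1 on the log2 scale were recovered, with 5 false calls of 191. For adult hippocampus (13410 genes) 64% and 95% were recovered. The changed genes were drawn only from those with a mean over 200, so these shares do not describe dimmer genes. Among the members tested at E18.5, all but Klf9 were dimmer than that. Tables were handled with the R package data.table (version 1.17.8), and Python 3.11.15, pandas 2.3.3, numpy 2.4.6, scipy 1.17.1 and matplotlib 3.10.9 were used.

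Results were recomputed with unscaled deposited values, quantile normalization, log2(signal + 32), no filter or a filter at 200, no trend, the replicate block, a fit of only the compared groups, each array left out, other limits and another choice of probe set; inferred sex (Xist over 1000) was added after seeing the data.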

Additional observations from a re-analysis of the deposited data

Results flagged for a closer look

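In the 24 combinations of a member and a P84 group of 4 arrays, 1 had an array far from the other 3 by Dixon's test, and chance gives about 1 in 20. Plekhg4 in P84 VPA hippocampus read 154.1 in replicate 4, against 120, 120 and 125 in the other arrays. The 4 MC arrays of that set read 133, 163, 161 and 149.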

How the results depend on the processing

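Recomputed counts of members stayed within 1.5 times in 194 cases and moved further in 11. The set of 12 became 4 with an MC limit of 32 and 4 with a VPA limit of 200. It was 11 under quantile normalization (4 of the members kept) and 14 with the values as deposited (2 kept). With 1 E14.5 array left out it was 12 to 17 (11 or 12 kept). With the probe set chosen on the E14.5 arrays it was 12 (11 kept, with Tnfrsf12a added). Klf9 was the member lost by that choice. Its brightest probe set at E14.5 had a mean of 131 in E14.5 MC, above the MC limit of 50. With the values as deposited, the members called became 0 in E18.5 forebrain for VPA against MC, 0 for VPA against VPM and 1 in E18.5 hippocampus for VPA against VPM (Klf9, limma adjusted p = 0.0267). With no filter the forebrain count for VPA against VPM became 0. Leaving out 1 array gave 0 to 1 there and 0 to 1 for the running wheel in MC cortex. Sesn2 in wheel-running hippocampus ran from -0.10, without MC wheel replicate 2, to 0.69 with 1 array left out. Over all genes, the 248 calls for VPA against MC in E18.5 forebrain ran from 17 (as deposited) to 271 (filter at 200), with 58 without a filter, 161 without a trend, 158 from the compared groups alone and 35 to 175 with 1 array left out, and the 61 for VPA against VPM from 0 to 70. The adult cortex wheel count of 2 became 133 without MC wheel replicate 3. With the values as deposited, calls over all genes went from 0 to 43 (VPA against MC) and 40 (VPA against VPM) in E18.5 hippocampus and from 0 to 29 at P84. Replicate numbers did not pair the samples by the correlation of their deviations (r from -0.22 to 0.32 over 13 comparisons). The replicate block gave 271 and 70 calls in the forebrain and moved no member across the threshold: Klf9 in forebrain had a limma adjusted p of 0.00985 against MC and 0.0219 against VPM. The causes were not tested. Signals near the floor limit all statements on dim members: 8 of 12 could not be tested in each E18.5 tissue.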
